A study of Mus musculus with 6 samples.

Results

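The genes described here are 9 members of the EYA-, SIX- and DACH-family genes, chosen by name: Eya1, Eya2, Eya3, Eya4, Six2, Six3, Six4, Six5 and Dach1. Each symbol matched 1 of the 55416 mouse Ensembl identifiers in the table of read counts. Of the 9 genes, 7 had enough reads to be tested, among 17679 genes tested in all, and Eya1 and Eya2 did not. RNA was sequenced from MB21, a mouse medulloblastoma cell line with mutant Ptch, kept in suspension in DMEM/F12 with B27 supplement. The control group received the vehicle DMSO and the treated group received 10 uM DS-1-38 (named DS38 in the samples), a derivative of benzarone; both groups share the mutant Ptch, and all cells come from this single line. Treatment lasted 1 day by the sample titles and the treatment protocol, while the series' design text names a longer time. Each group held 3 libraries. Nothing in the labels says that these were separate cultures, so p-values set group differences against a spread between libraries that may be technical.

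EYA proteins are transcriptional coactivators that also carry a tyrosine phosphatase domain. They do not bind DNA themselves and are brought to genes by SIX-family homeodomain proteins, while DACH proteins act in the same network mostly as corepressors. The network is known for its roles in the development of eye, ear, kidney and muscle, and EYA phosphatases also act on histone H2AX after DNA damage. Benzarone is known to inhibit the EYA phosphatase. The data are messenger RNA levels, and phosphatase activity was not measured.

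The most abundant EYA gene, the most abundant SIX-family gene and the DACH gene are shown by bases upstream of their transcription starts, since they carry the main levels and the single called change. The sequences are RefSeq's, on GRCm38.p6, written 5′ to 3′ on the gene's strand, and the submitters' notes name a later build. Capitals mark a GC box (GGGCGG on either strand), the binding motif of SP factors. The stretches of Six5 and Dach1 end 1 base before a start, and that of Eya3 ends 22 bases before, where RefSeq's gene span begins. The Eya3 stretch (plus strand) lies at chr4:132638796-132639024, that of Six5 (plus strand) at chr7:19094294-19094543, and that of Dach1 (minus strand) at chr14:98169766-98170015.
Eya3: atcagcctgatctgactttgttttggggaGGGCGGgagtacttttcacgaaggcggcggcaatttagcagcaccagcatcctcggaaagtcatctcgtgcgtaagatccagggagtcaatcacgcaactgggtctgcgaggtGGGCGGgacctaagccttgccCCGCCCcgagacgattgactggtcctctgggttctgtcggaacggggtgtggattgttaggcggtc
Six5: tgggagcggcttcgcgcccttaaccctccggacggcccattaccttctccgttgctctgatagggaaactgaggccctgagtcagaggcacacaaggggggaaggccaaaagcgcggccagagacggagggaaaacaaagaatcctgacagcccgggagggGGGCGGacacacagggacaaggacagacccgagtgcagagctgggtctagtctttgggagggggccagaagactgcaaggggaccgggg
Dach1: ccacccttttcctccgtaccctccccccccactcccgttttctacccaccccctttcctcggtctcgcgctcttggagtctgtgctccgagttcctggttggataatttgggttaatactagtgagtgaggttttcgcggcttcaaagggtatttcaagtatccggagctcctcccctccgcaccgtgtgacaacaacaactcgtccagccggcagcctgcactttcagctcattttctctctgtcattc

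RefSeq promoters were matched for 7 of the 9 genes, as 9 windows of 250 bases before and 50 after a start. They held 13 to 37 CG dinucleotides, against a median of 7 over all 32851 windows, and 50% to 69.3% G plus C, against a median of 52.7%. A GC box was in 7 of the 9 windows and in 35.7% of all. The paired windows of Eya4 and of Six4 overlap and share their boxes, so by gene it was 5 of 7. A CCAAT box (CCAAT) was in 3 of the 9 windows, each of another gene, and in 37.4% of all. The TATA box (TATAAA, in 13.6% of all windows), the GLI motif (TGGGTGGTC, 0.253%), an E2F motif (TTTCCCGC, 1.07%) and the stress-response motif CARE (TGATGNAA, 3.97%) were in 0 of the 9. Motifs were searched on both strands. The core of the SIX-family binding motif (TCAGGTT, in 4.07% of all windows) was in 1 window, that of a Six4 start. It is shown in capitals, as it reads on the gene's strand, within 30 bases on the minus strand at chr12:73113324-73113353 (GRCm38.p6), 97 to 91 bases before that start.
Six4: ggcctgggggaAACCTGAtcggccagatcc
A match is a description of these letters, and binding was not measured.

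Totals were 38840296 to 50014681 counts in the DMSO libraries and 60434089 to 84044428 in the DS38 libraries, so every treated library was deeper than every control. Pairs of libraries were compared by chi-square per degree of freedom. DMSO replicate 3 differed less from the DS38 libraries (10.7 to 12.9) than did DMSO replicates 1 and 2 (24.2 to 28.9). The genes with non-overlapping groups are therefore also given without it. Pairs within DMSO were at 8.57 to 9.61 and pairs within DS38 at 2.91 to 3.56, so the control libraries differed more among themselves. The medulloblastoma label was checked with 10 markers of cerebellar granule cell progenitors, and all 10 were above 1 CPM (counts scaled to library size by TMM), with Atoh1 at 326.7 and Zic1 at 666.03 CPM in DMSO. All 8 skeletal muscle markers were under 1 CPM, with Myf5, Myf6 and Pax7 at 0 counts. Of the nephron progenitor list only Sall1 and Cited1 passed 1 CPM. Of the 7 astrocyte markers, Slc1a2, Slc1a3 and Gfap were at 308.9, 143.8 and 4.33 CPM in DMSO, and the other 4 were under 1 CPM, with Aqp4 and Gja1 at 3 counts each. All 7 microglial and all 6 endothelial markers were under 1 CPM, and Sox10 of the oligodendrocyte list had 12 counts.

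Among the EYA genes, Eya3 made up nearly all of the measured message. Levels are compared between genes as TMM-scaled CPM divided by the deposited gene length in kilobases (CPM per kilobase). On that scale Eya3 was at 17.7 ± 0.204 in DMSO and 17.8 ± 0.383 in DS38 (SD, n = 3). The order of mean levels below it was Six5 (3.96 ± 0.216 in DMSO), Dach1 (1.73 ± 0.065), Six2 (1.57 ± 0.043), Eya4 (0.212 ± 0.034), Six4 (0.081 ± 0.0077), Six3 (0.046 ± 0.016) and Eya2 (0.026 ± 0.015). In DMSO, the libraries of Six3 and Eya2 overlapped and no other neighbours in this order did. In DS38, those of Six4 and Six3 overlapped and no others did. Over all 6 libraries, Eya3 ranked 3006th and Six5 7741st among protein-coding genes. Eya3 held 98.7% ± 0.188 of the summed EYA level in DMSO and 98.3% ± 0.127 in DS38. Six5 held 69.9% ± 1.83 and 71.2% ± 1.59 of the sum of the 4 SIX-family genes named, and Six2 27.8% ± 1.44 and 25.4% ± 1.82.

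**Figure D1:**
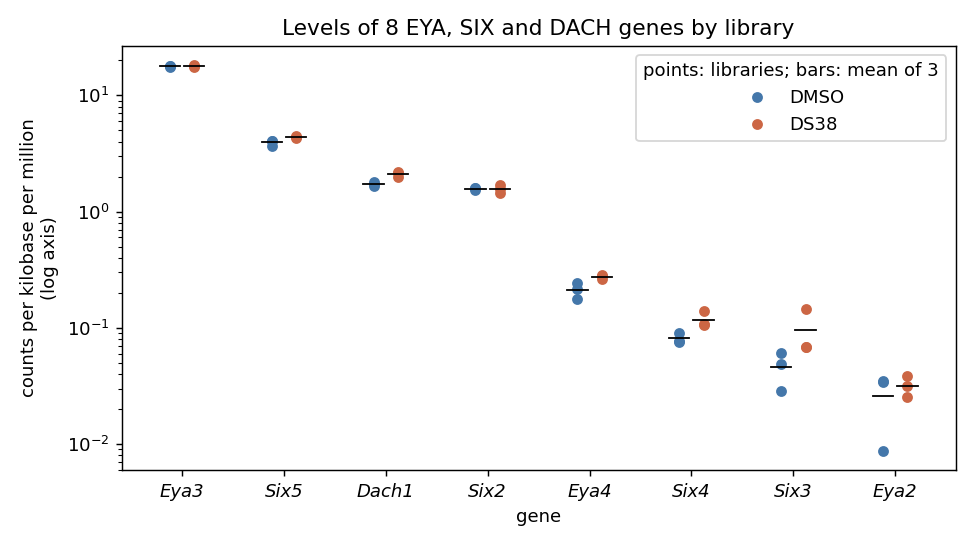
TMM-scaled CPM per kilobase (log axis) of 8 genes in each of 6 libraries, with DMSO in blue, DS38 in orange and bars at the mean of 3. Eya3 lies at 17.7 in DMSO, above Six5 at 3.96, and Six3 and Eya2 lie lowest; Eya1, with 0 counts, is not drawn.

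Eya3, the EYA phosphatase gene that was well expressed, did not differ detectably between DS38 and DMSO. It had 100.7, 101.02 and 98.9 CPM in DMSO replicates 1 to 3, and 102.7, 98.4 and 100.3 CPM in DS38 replicates 1 to 3. The groups overlapped fully. The log2 fold change (DS38 over DMSO) was 0.0041 ± 0.030 (SE; edgeR adjusted p = 0.941), and its 95% confidence interval ran from 0.960-fold to 1.05-fold. The 3 tested protein-coding genes closest to Eya3 over the 6 libraries were Tprkb, Gfm1 and Hmgxb3, with root mean square differences in centred log2 CPM of 0.0057, 0.0070 and 0.0078, against a median of 0.0649 over 9830 genes.

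Eya4, the EYA gene linked in humans to hearing loss, was low. It had 112, 80 and 79 counts in DMSO and 197, 163 and 223 in DS38, or 2.29, 1.66 and 2.04 against 2.47, 2.66 and 2.62 CPM. Every DS38 library lay above every DMSO library, but the log2 fold change of 0.37 ± 0.14 did not pass (SE; edgeR adjusted p = 0.0627). It passed without DMSO replicate 1 (log2 fold change 0.49, edgeR adjusted p = 0.0318) and not without DMSO replicate 2 (0.24, adjusted p = 0.268). Without DMSO replicate 3 it was 0.38 (edgeR adjusted p = 0.0771).

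Eya1 and Eya2 gave few or no reads. Eya1, the EYA gene mutated in branchio-oto-renal syndrome, had 0 counts in all 6 libraries, where 3 counts over the summed library sizes would be 0.00829 CPM and the exact Poisson 95% upper limit was 0.0102 CPM. Such limits and the Poisson intervals cover counting error only. Of 3025 protein-coding genes at least as long as Eya1 (7808 bases), 110 (3.64%) were also at 0 in all libraries. Eya2 had 5, 5 and 1 counts in DMSO and 6, 7 and 8 in DS38, or 0.0884 CPM over all libraries (exact Poisson 95% interval 0.0605 to 0.125). The groups overlapped, and a change in Eya2 was not detectable at this depth. The summed EYA level was 17.98 ± 0.213 CPM per kilobase in DMSO and 18.1 ± 0.367 in DS38 (SD; exact two-sided permutation p = 0.8, n = 3).

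Dach1, the corepressor of the network, was the single gene of the family called, and it was higher in DS38; 12.9% of all tested genes were called higher. It had 12.7, 12.2 and 13.1 CPM in DMSO replicates 1 to 3 and 14.5, 15.8 and 16.06 CPM in DS38 replicates 1 to 3. The groups did not overlap, and the lowest treated library, replicate 1, was above the highest control, replicate 3. The log2 fold change was 0.29 ± 0.061 (SE; edgeR adjusted p = 0.00143), a rise of 22.1% with a 95% confidence interval of 1.12-fold to 1.33-fold. Without DMSO replicate 3 it was 0.31 (edgeR adjusted p = 9.18e-04). Over all 17 alternatives its log2 fold change was 0.26 to 0.33 and its adjusted p was 1.05e-04 to 0.0136. The highest adjusted p was that without DMSO replicate 2. The genes closest to Dach1 over the 6 libraries were Trdmt1, Gca and Slc38a7, at root mean square differences of 0.0215, 0.0330 and 0.0349 in centred log2 CPM, against a median of 0.149.

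**Figure D2:**
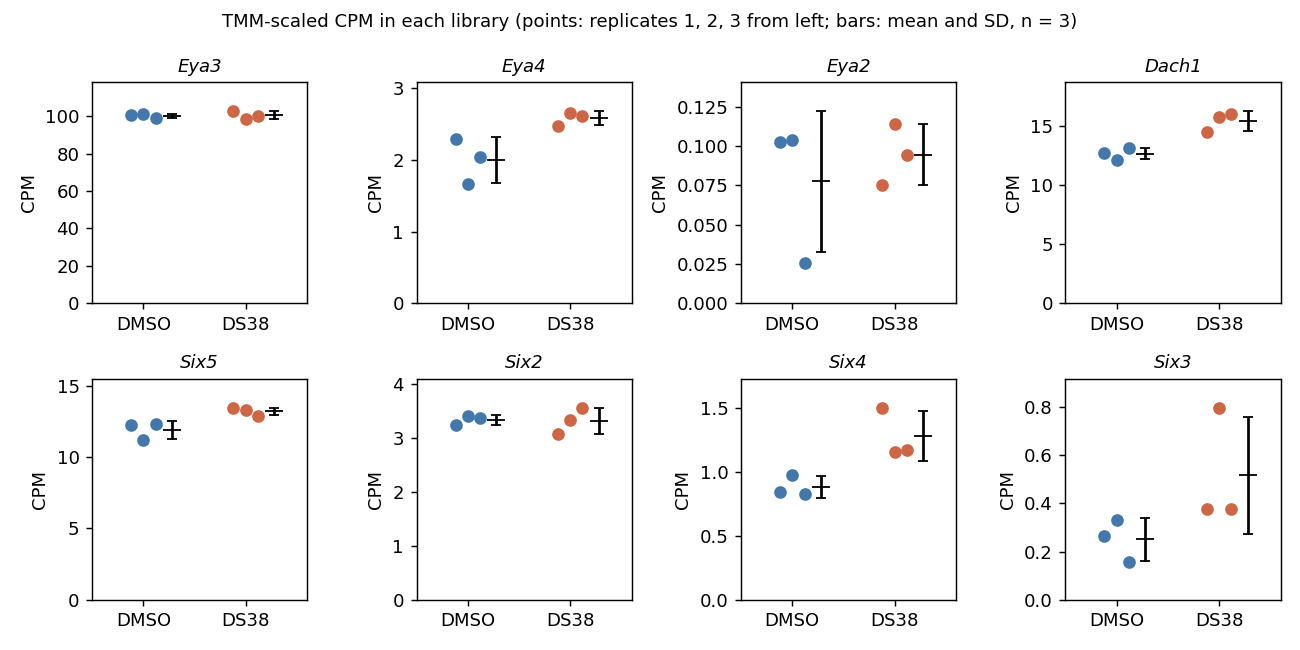
TMM-scaled CPM of 8 genes in each library (axes start at 0), with replicates 1, 2 and 3 from left and mean and SD of 3 beside them. Eya3 and Six2 overlap between groups, while all DS38 points of Dach1, Eya4, Six3, Six4 and Six5 lie above all DMSO points.

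Of the 4 SIX-family genes, none passed, though 3 of them had every DS38 library above every DMSO library (20.7% of all tested genes did). Six5, a homeodomain gene beside the myotonic dystrophy kinase gene Dmpk, had 12.3, 11.1 and 12.3 CPM in DMSO and 13.4, 13.3 and 12.9 CPM in DS38. Its log2 fold change was 0.15 ± 0.062 (SE; edgeR adjusted p = 0.0853), with a 95% confidence interval of 1.01-fold to 1.21-fold. Without DMSO replicate 3 it was 0.17 (edgeR adjusted p = 0.0754), and without DMSO replicate 2, the lowest library, 0.103 (edgeR adjusted p = 0.318). With a correction for gene length it was 0.105 (edgeR adjusted p = 0.228), and with that for GC content 0.078 (edgeR adjusted p = 0.378). With library size alone it was 0.185 (edgeR adjusted p = 0.0338). The neighbours Dmpk and Fbxo46 had log2 fold changes of 0.055 ± 0.088 and -0.022 ± 0.061 (edgeR adjusted p = 0.699 and 0.833).

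Six4, which acts in muscle development, had 41, 47 and 32 counts in DMSO and 120, 71 and 100 in DS38. These were 0.839, 0.978 and 0.827 CPM against 1.504, 1.16 and 1.17 CPM. DS38 replicate 1 was the highest library, and without it the log2 fold change went from 0.54 ± 0.20 (SE; edgeR adjusted p = 0.0561) to 0.40 (edgeR adjusted p = 0.250). Without DMSO replicate 3 it was 0.49 (edgeR adjusted p = 0.103). In RefSeq's gene table the span of Mnat1, a subunit gene of the CDK-activating kinase, overlaps Six4, while in GENCODE M21 (GRCm38) the exons of Six4 share no bases with another gene. Mnat1 was at 35.1 CPM in DMSO and 39.8 CPM in DS38 (log2 fold change 0.18 ± 0.041, SE; edgeR adjusted p = 0.00261). Its part in the Six4 counts was not tested.

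Six3, a regulator of forebrain and eye development, had 13, 16 and 6 counts in DMSO and 30, 49 and 32 in DS38. DS38 replicate 2 stood at 0.799 CPM, above 0.376 CPM in both other DS38 libraries, and DMSO replicate 3 was lowest at 0.155 CPM. The coefficient of variation was 35.7% in DMSO, against 29.3% from Poisson counting, and 47.3% in DS38, against 16.4%. The log2 fold change of 0.97 ± 0.39 did not pass (SE; edgeR adjusted p = 0.0741) and fell to 0.55 without DS38 replicate 2 (edgeR adjusted p = 0.389). Without DMSO replicate 3 it was 0.74 (edgeR adjusted p = 0.191). The filter on low counts asked for 3 libraries at 0.181 CPM before scaling, which 2 DMSO and 3 DS38 libraries of Six3 reached, so Six3 was tested because of its higher group. The antisense genes Six3os1 and Gm28528 share 106 and 168 exon bases with Six3 and had 15 and 3 counts in all.

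Six2, which maintains nephron progenitors in the kidney and lies next to Six3 on chromosome 17, did not differ detectably. It had 3.23, 3.41 and 3.36 CPM in DMSO and 3.07, 3.33 and 3.56 CPM in DS38, and the groups overlapped. Its log2 fold change was -0.0059 ± 0.11 (SE; edgeR adjusted p = 0.978), with a 95% confidence interval of 0.847-fold to 1.17-fold. Per 100 Six2 reads there were 8.23, 9.76 and 4.62 Six3 reads in DMSO and 12.2, 24.02 and 10.6 in DS38. This ratio restates the Six3 values beside a gene that did not differ detectably and is no further support for them. The sum of the 4 SIX-family genes was 5.66 ± 0.166 CPM per kilobase in DMSO and 6.16 ± 0.065 in DS38 (SD), 1.09-fold higher. Its exact two-sided permutation p was 0.1, the smallest that 3 against 3 allows, or 0.2 adjusted over the 2 sums tested (n = 3).

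**Figure D3:**
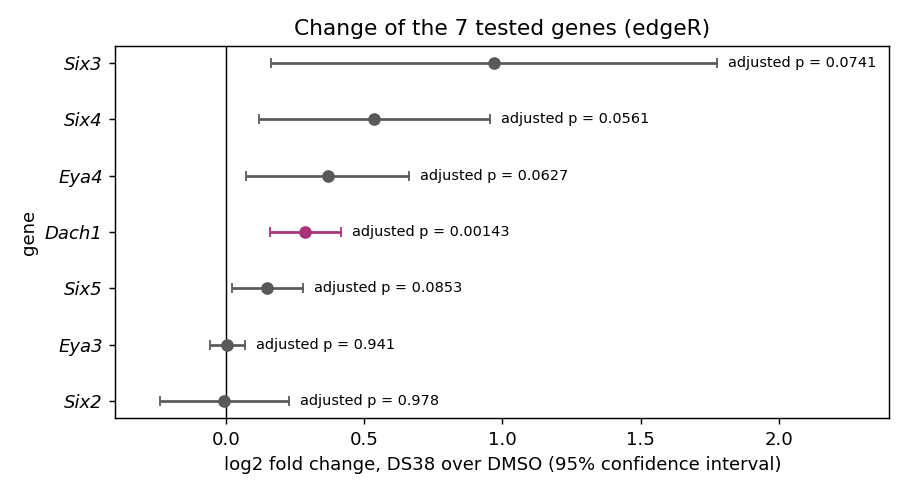
Log2 fold change of DS38 over DMSO for the 7 tested genes (points) with 95% confidence intervals (bars) and edgeR adjusted p-values. Dach1, in purple, is the single gene with an adjusted p under 0.05, and Eya3 has the narrowest interval, around 0.0041.

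Read against all genes, 1 of 7 tested members was called higher and 0 lower, where 24.5% of all tested genes were called, 12.9% higher and 11.7% lower. For calls higher, 1 of 7 is near the share of all genes. At an unadjusted p under 0.05, 5 of the 7 were higher (18.8% of all genes), and in the same 5 genes all DS38 libraries lay above all DMSO libraries (20.7% of all genes). Six3 is among these 5 and was tested because of its higher group. The median log2 fold change of the 7 was 0.29, against 0.0036 over all tested genes. The members were proposed with results of these data known, so these counts are a description and no test of the family.

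The number of members called higher stayed at 1 in 11 of the 17 alternatives and differed in 6. It stayed at 1 with RLE scaling, DESeq2, limma-voom, the stricter filter, robust dispersion and thinning. The number was 4 with library size alone (18.6% of all genes called higher), where Eya4, Six4 and Six5 joined Dach1. Library size alone also moved the share of calls that were higher from 52.4% to 68.1%. It was 3 with a correction for gene length (12.2% of all genes) or for GC content (12.5%), where Eya4 and Six4 joined. It was 2 with no filter on low counts (7.45%) or with the replicate number as a block (11.9%), where Six3 joined, and 2 without DMSO replicate 1 (9.93%), where Eya4 joined. A ratio within a library needs no scaling. Per 100 Eya3 reads, Dach1 had 12.6, 12.04 and 13.3 reads in DMSO and 14.1, 16.02 and 16.01 in DS38, 1.22-fold higher. The ratio of Six2 to Eya3 overlapped between groups. For Eya4, Six3, Six4 and Six5 the ratios of means were 1.29-fold, 2.07-fold, 1.44-fold and 1.11-fold. These ratios were added after the CPM values were seen, and since Eya3 did not differ detectably they restate those values on another scale.

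**Figure D4:**
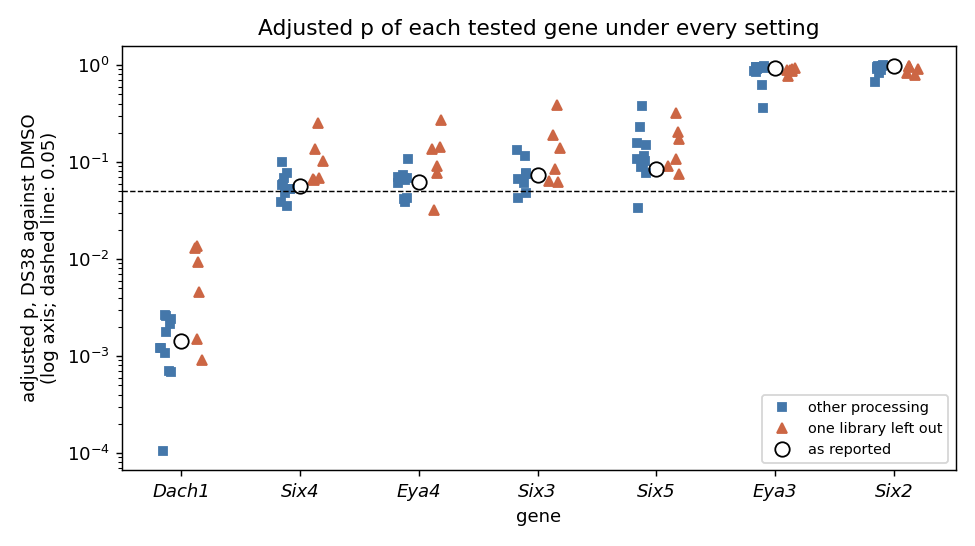
Adjusted p of DS38 against DMSO (log axis, dashed line at 0.05) for the 7 tested genes as reported (circles), under other processing (squares) and with a library left out (triangles). Dach1 stays under the line in all 17 alternatives, Six4, Eya4, Six3 and Six5 lie on both sides of it, and Eya3 and Six2 stay above.

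Partners of the family were read from 4 lists. In the wider network of SIX-, DACH- and PAX-family relatives and corepressors, 2 rose and 1 fell of 8 tested (12.9% of all tested genes were called higher and 11.7% lower), with a median log2 fold change of -0.0083. Skil, a SKI-family corepressor related to DACH proteins, rose from 50.3 to 58.002 CPM (log2 fold change 0.20 ± 0.035, SE; edgeR adjusted p = 1.92e-04). Tle5, of the groucho-related family, rose by 0.14 ± 0.031, and Sobp, a SIX-binding factor, fell by 0.24 ± 0.045 on the log2 scale. Pax6, the granule progenitor PAX gene, was at 76.03 and 71.9 CPM (edgeR adjusted p = 0.0683). Six6, Pax3, Pax7 and Pax8 had 0 counts in all libraries, Pax2 had 1 and Dach2 had 23.

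Among kinases, phosphatases and binding partners of EYA proteins, 4 rose and 3 fell of 16 tested (12.9% and 11.7% of all genes), with a median of 0.039. Baz1b, the kinase that places the H2AX tyrosine mark removed by EYA, fell from 475.3 to 415.6 CPM (log2 fold change -0.19 ± 0.029, SE; edgeR adjusted p = 3.51e-05). H2ax itself was at 114.5 and 120.2 CPM (edgeR adjusted p = 0.0916). Src, a tyrosine kinase that phosphorylates EYA proteins, rose by 0.20 ± 0.042, Mapk3 by 0.21 ± 0.039 and Gnaz, a G protein that binds EYA2, by 0.29 ± 0.061, while Cdk6 fell by 0.39 ± 0.038 on the log2 scale. Mdc1 and Ppp2r2a changed by -0.11 and 0.083. Mdc1 lost its call with library size alone (edgeR adjusted p = 0.0541) and without DS38 replicate 1 (edgeR adjusted p = 0.0548) or 2 (0.0731), and Ppp2r2a in 10 of 17 alternatives. For Ppp2r2a these were RLE scaling, DESeq2, the replicate block, thinning and the length correction (adjusted p = 0.0628 to 0.124, edgeR except for DESeq2), and leaving out DMSO replicate 2 or 3 or any DS38 replicate (edgeR adjusted p = 0.05003 to 0.193).

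Of reported SIX- and EYA-family target genes 3 rose and 3 fell of 12 tested (12.9% and 11.7% of all genes), with a median of -0.050. Igfbp5, a target of SIX5, rose from 133.9 to 190.4 CPM and Cdkn1a by 0.87 ± 0.063 on the log2 scale (SE). Slc12a2, an ion transporter reported as a SIX-family target, fell from 224.7 to 196.7 CPM, and Ccnd1, cyclin D1, fell by 0.13 ± 0.027. The semaphorin and VEGF receptors moved apart. Nrp1 fell from 15.9 to 13.3 CPM (edgeR adjusted p = 0.00706) and Nrp2 rose from 10.9 to 12.7 CPM (edgeR adjusted p = 0.00938). Nrp1 was not called without DMSO replicate 1 (edgeR adjusted p = 0.0661), and Nrp2 not without DS38 replicate 1 (edgeR adjusted p = 0.0514). Myog and Gdnf had 25 and 54 counts in all and were not tested. In the hedgehog readout, 6 fell and 0 rose of 7 tested (11.7% and 12.9% of all genes), with a median of -0.16, and both groups carry mutant Ptch. Hhip, a hedgehog-binding inhibitor and target, fell by 0.35 ± 0.035 on the log2 scale, the receptor gene Ptch1 by 0.19 ± 0.030, and the transcription factor gene Gli2 by 0.16 ± 0.034.

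Some markers of other cells were also called between the groups. The summed astrocyte list was 447.3 to 471.1 CPM in DMSO and 389.4 to 401.3 CPM in DS38, mostly Slc1a2 and Slc1a3. Of its 4 tested members, 1 fell and 1 rose (11.7% and 12.9% of all tested genes). Slc1a2 went from 308.9 to 249.3 CPM (edgeR adjusted p = 1.80e-07) and Gfap from 4.33 to 5.40 CPM (edgeR adjusted p = 0.0179). Not called were Slc1a3, at 143.8 and 139.3 CPM (edgeR adjusted p = 0.297), and S100b, at 0.788 and 0.612 CPM (edgeR adjusted p = 0.292). The summed fibroblast list was 1.72 to 2.64 CPM in DMSO and 2.63 to 3.13 CPM in DS38. All 6 of its markers averaged under 1 CPM over all libraries. Of 3 tested, 1 rose and 0 fell (12.9% and 11.7% of all tested genes). Col1a1 went from 0.373 to 0.822 CPM (edgeR adjusted p = 0.0122). Its counts were 18, 10 and 21 in DMSO and 85, 52 and 47 in DS38. Lum went from 0.716 to 1.09 CPM (edgeR adjusted p = 0.0637) and Col3a1 from 0.920 to 0.800 CPM (edgeR adjusted p = 0.653). Means of Col1a2, Dcn and Pdgfrb, at 12, 19 and 16 counts in all, were lower in DS38. The sums of granule progenitor markers were 2283 to 2352 CPM in DMSO and 2359 to 2382 CPM in DS38. Of these 10 markers, 3 were called higher and 3 lower (12.9% and 11.7% of all tested genes). Atoh1 went from 326.7 to 411.001 CPM, Barhl1 from 190.8 to 230.7 CPM and Neurod1 from 112.7 to 87.4 CPM. The part of these shifts in the Dach1, Eya4 and SIX-family values was not tested.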

How the data were processed

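Messenger RNA was measured in 6 libraries, 3 per group. A single table was deposited, with the authors' raw read counts for every gene as whole numbers and a length for each gene. The submitters' processing notes name STAR 2.7.9a, featureCounts, Subread 2.0.3, R 4.1.0, edgeR and the builds GRCm39 and GRCh38.p13. What each did, the strand setting and how multi-mapping reads were handled were not given in the sources. Without strand, reads of a gene and of an overlapping antisense gene cannot be told apart. Symbols from GENCODE M21 (GRCm38) matched 52083 identifiers, with H2ax and Tle5 found under older names.

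Calculations used edgeR 4.0.16, DESeq2 1.42.0 and limma 3.58.1 under R 4.3.3, with Python 3.11.15. Counts passed filterByExpr (minimum count 10, minimum total 15), were scaled by TMM, and were fitted by edgeR quasi-likelihood (two-sided) with group as the sole term. P-values were adjusted by Benjamini-Hochberg over 17679 genes, with a threshold of 0.05, and intervals are 95%. The script was tested on simulated data. The alternatives were RLE scaling, library size alone, DESeq2, limma-voom, no filter, a minimum of 5 CPM in 3 libraries, a block on replicate number, robust dispersion, thinning to the smallest total, a gene-length correction and leaving out each library. A GC correction and ratios to Eya3 or Six2 were added after seeing the data. Named genes were the 9 members, up to 4 called genes per direction of each list by adjusted p, the nearest genes, and the 3 genes most like Eya3 and Dach1 (at least 5 CPM). Some genes of the lists are not reported here. Others named were picked from the same lists after their values were seen. Members and lists were chosen with earlier results of these data known.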

Additional observations from a re-analysis of the deposited data

How the results depend on the processing

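Dach1 was called higher under all 17 alternatives and no member was called lower under any. The number of members called higher was 4 with library size alone, 3 with the gene-length or GC correction, 2 with no filter on low counts or the replicate block, and 1 to 2 with a library left out (2 without DMSO replicate 1). Of all genes, 1640 to 3289 were called higher and 1543 to 2512 lower. The log2 fold change of Eya3 changed sign, without a call, with RLE scaling (-0.0036), DESeq2 (-0.0035), the stricter filter (-0.00071), thinning (-0.0069), the correction for length (-0.021) and that for GC (-0.0097). It ranged from -0.011 to 0.019 with a library left out, below 0 when this was DMSO replicate 3 (-0.0084) or DS38 replicate 1. That of Six2 changed sign with library size alone (0.029) and no filter (0.0018), and ranged from -0.062 to 0.050 with a library left out, above 0 for DMSO replicate 2 (0.012) and DS38 replicate 1. The EYA sum in DS38 over DMSO was 1.007, 1.03 in TPM, and 0.996 to 1.02 with a library left out. In the lists, 7 EYA partners were called higher with library size alone, and 2 genes of the wider network lower with RLE scaling, the stricter filter or thinning and 3 with the GC correction. The causes were not tested. Same-numbered libraries did not deviate together (correlations -0.062 to 0.049), so the numbers are not taken as pairs, and the replicate block called 2108 genes higher and 1902 lower, against 2272 and 2068. The block ended the call of Ppp2r2a (edgeR adjusted p = 0.0670), which was lost in 10 of 17 alternatives. The stricter filter left out Eya4, Six2, Six3 and Six4, and DESeq2 gave Six3 no adjusted p. Depth limits what can be said of Eya1, Eya2, Six3 and Six4, at 0, 32, 146 and 411 counts in all.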
